A study of Rattus norvegicus with 12 samples.

Results

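Coronary arterioles from old control rats were compared with those from young control rats, which made up 8 of the 12 libraries of the study. The 4 young and 4 old libraries were taken by their labels, and all 12496 gene IDs with enough reads for a test were included, of 24600 in the deposited table. The rats were female Fischer-344, an inbred strain widely used in ageing research. Young controls were 3 months and old controls 24 months old, and neither group was treated. The other 4 libraries came from rats labelled 24 months that had been injected at 23 months, through the tail vein, with 10000000 stromal vascular fraction (SVF) cells from adipose tissue. Their vessels were taken 4 weeks after the injection. These libraries enter here through the filter on reads, the scaling between libraries and the shared estimate of spread, and as values set beside the others. With the 8 control libraries alone, 12002 genes had enough reads for a test. Vessels were under 150 µm in diameter and came from branches of the left anterior descending artery near the apex of the heart. RNA came from pools of at least 5 microvessels of a group. The labels do not say which samples came from separate animals, so p-values measure the spread between these RNA samples, which may be partly technical.

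Coronary arterioles are resistance vessels. Their smooth muscle sets the flow of blood to the heart muscle, and their endothelium releases nitric oxide and other dilators that relax it. Beta-adrenergic receptors on these vessels raise cyclic AMP through stimulatory G proteins and adenylyl cyclase and so dilate them during exercise or stress, a response known to weaken with age. Arterial ageing is also known for changes in the collagen and elastin of the wall and for oxidative stress. The stated aim of the study was to follow messenger RNAs of the beta-adrenergic cascade, of receptor handling and of oxidative stress.

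The table gives genes by Ensembl ID only, and 0 of its 24600 IDs could be paired with a symbol in the reference gene list used here. No gene is therefore named, and 4 IDs are shown in full. For the same reason the labelled vessel type could not be checked against smooth muscle, endothelial or heart muscle markers. In pooled vessels, fewer cells of a type and less RNA per cell cannot be told apart.

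The libraries of the 2 ages did not differ detectably in depth, similarity or missing genes. Total counts ranged from 4068021 to 8665352 in young controls and from 6831996 to 8864718 in old controls, with means of 6346200 and 7967580 (exact permutation test over 70 groupings, 2-sided p = 0.229, smallest possible p = 0.0286). Each library was correlated with each of the other 7 over the tested genes. The median Spearman correlation was 0.955 ± 0.00585 in young and 0.953 ± 0.00745 in old controls (SD, n = 4, exact permutation test, 2-sided p = 0.686). Pairs of 1 young and 1 old library had a median correlation of 0.954, pairs of young libraries 0.958 and pairs of old libraries 0.954. Young and old libraries were thus about as like each other as libraries of the same age. Of the tested genes, 112 to 567 had no count in a young library and 78 to 725 in an old library (exact permutation test, 2-sided p = 1).

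**Figure D1:**
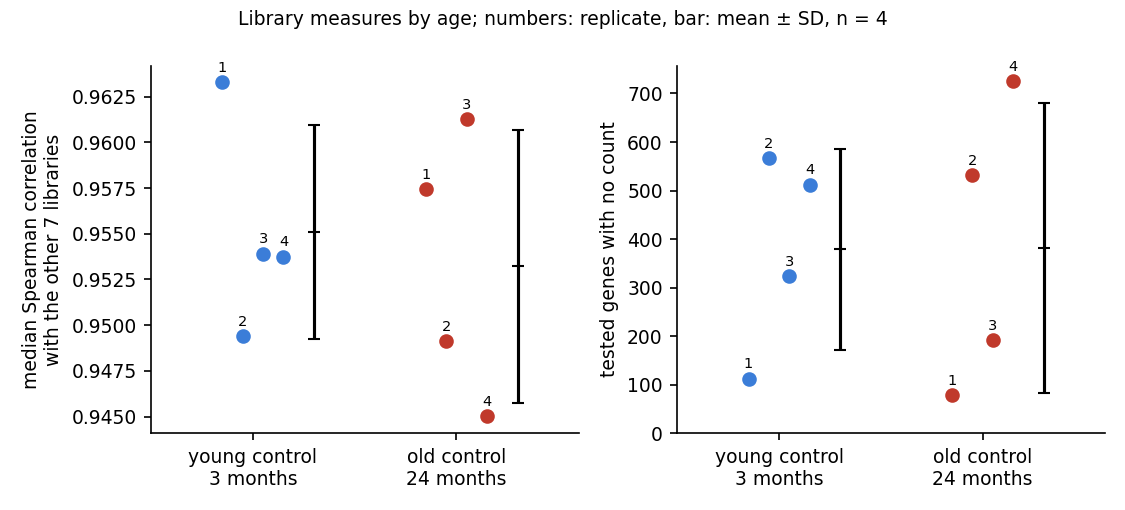
Median Spearman correlation of each library with the other 7 control libraries (left, axis not from 0) and number of tested genes with no count (right), for young and old controls. Points are libraries with their replicate numbers, and bars are the mean ± SD (n = 4). The ages overlap in both measures, and old control replicate 4 has the lowest correlation, 0.945, and the most genes with no count, 725.

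Old arterioles differed from young ones in 5 genes, 0.0400% of the 12496 tested (edgeR quasi-likelihood test, Benjamini-Hochberg adjusted p under 0.05). Of these, 4 rose (0.0320%) and 1 fell (0.00800%). The sixth smallest adjusted p was 0.0591. All 5 changed by at least 1.00 on the log2 scale, and in all 5 the old libraries lay wholly on one side of the young ones. Such separation was not rare: 437 tested genes, 3.50%, had no overlap between the ages, 234 higher (1.87%) and 203 lower (1.62%) at 24 months. An unadjusted edgeR p under 0.05 was reached by 667 genes (5.34%), 370 higher (2.96%) and 297 lower (2.38%). If age had no effect, a gene would separate with a probability of about 0.0286 and reach this p with one of about 0.05. Taken over all tested genes, both shares were near these rates. The share at this p rose with mean CPM (reads per gene scaled to a common library total). It was 2.40% under 4 CPM and 3.99% at 4 to 16 CPM, below the rate of 0.05. At 16 to 64 CPM it was 6.21%, and at 64 CPM and over 7.11%, above that rate. Whether the better measured genes exceeded chance was not tested. Of the 437 genes with no overlap, 198 had an unadjusted edgeR p of 0.05 or more. By DESeq2 there were 30 calls (0.240%), 21 higher and 9 lower in old controls. By limma voom, weighted by sample quality, there were 15 (0.120%), 10 higher and 5 lower. The 30 genes from DESeq2 included all 5, and the 15 from limma voom included 4 of them.

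**Figure D2:**
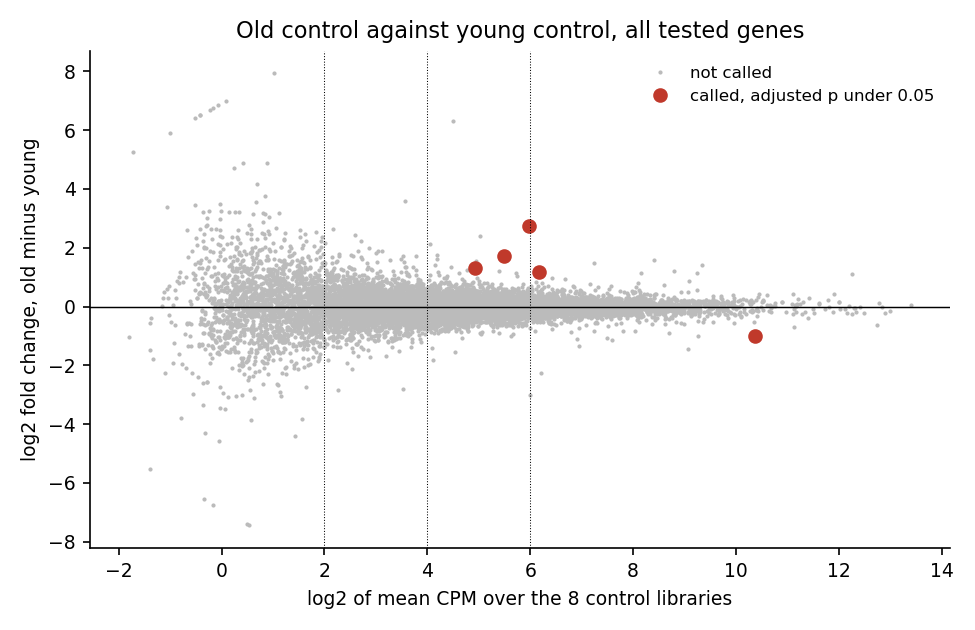
Log2 fold change, old minus young control, against log2 of the mean CPM (reads per gene scaled to a common library total) over the 8 control libraries, 1 point per tested gene. Large points are the 5 called genes, dotted lines bound the read-depth classes at 4, 16 and 64 CPM, and the 4 called rises lie between 30.4 and 72.4 mean CPM while the called fall lies at 1321.

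The steepest called rise was that of ENSRNOG00000021027. CPM values (scaled between libraries by the TMM method) were 13.1, 14.1, 14.3 and 25.4 in young control replicates 1 to 4. In old control replicates 1 to 4 they were 118, 80.6, 183 and 57.4. The lowest old library was thus well above the highest young library, and the old libraries spread over a wider range than the young ones. The means were 16.7 ± 5.78 in young and 110 ± 54.8 CPM in old controls (SD, n = 4), a 6.66-fold rise. On the log2 scale the change was 2.74 with an SE of 0.40 (95% interval 1.89 to 3.58), and it passed the test (edgeR adjusted p = 0.0139). It rested on 75 to 111 reads per young and 518 to 1523 per old library. Old SVF-treated libraries were at 22.6, 54.3, 78.2 and 35.0 CPM, so that 1 of them lay within the young range. The log2 fold change stayed between 2.25 and 3.00 in 23 alternative analyses, but the gene was called in 15 of them. The call ended without young control replicate 1, 2 or 3 (edgeR adjusted p = 0.0784, 0.105 and 0.117), or without old SVF replicate 2 (0.0638). It also ended with limma voom (adjusted p = 0.0697), with no filter on low counts (edgeR adjusted p = 0.104), when both old groups were pooled (edgeR adjusted p = 0.210), and without both young control replicate 3 and old control replicate 1 (edgeR adjusted p = 0.113).

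ENSRNOG00000030729 had the smallest p of all tested genes. Young control replicates 1 to 4 were at 20.4, 8.08, 27.3 and 28.2 CPM, and old control replicates 1 to 4 at 76.7, 53.0, 70.3 and 76.9 CPM. Here the young libraries varied more than the old ones on the log2 scale (SD 0.83 against 0.25), and young control replicate 2 was the lowest. The means rose from 21.0 ± 9.28 to 69.2 ± 11.2 CPM (SD, n = 4), which is 3.30-fold, or 1.72 with an SE of 0.26 on the log2 scale (95% interval 1.17 to 2.27), with an edgeR adjusted p of 0.0139. Reads per library numbered 43 to 204 in young and 356 to 694 in old controls. The SVF-treated libraries were at 66.6, 53.0, 56.3 and 54.6 CPM, all above the young libraries and closer together than the old controls. Their contrast shares the young libraries with the one above, and its log2 fold change was 1.46 (edgeR adjusted p = 0.0462). In that contrast 8 genes were called (0.0640%). The call held in 22 of 23 alternative analyses, with log2 fold changes of 1.46 to 1.89, and ended without young control replicate 1 (edgeR adjusted p = 0.0718).

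The other 2 called genes rose by 1.18 (SE 0.20, edgeR adjusted p = 0.0260) and 1.32 (SE 0.24, edgeR adjusted p = 0.0294) on the log2 scale. The first was at 49.2, 41.4, 35.8 and 51.5 CPM in young control replicates 1 to 4 and at 111, 122, 81.4 and 87.3 CPM in old control replicates 1 to 4. The second was at 21.8, 15.2, 19.6 and 12.5 CPM in young and 53.3, 34.0, 42.1 and 44.9 CPM in old control libraries. In both, the lowest old library stood well clear of the highest young library, as in the 2 IDs above. In SVF-treated libraries the means were 100.9 ± 30.2 and 42.1 ± 8.36 CPM, next to 100.4 ± 19.3 and 43.6 ± 7.98 CPM in old controls (SD, n = 4). These calls held in 17 and 14 of 23 alternative analyses, with log2 fold changes of 1.05 to 1.27 and 1.21 to 1.45. Leaving out old control replicate 2, or a young control other than replicate 4, ended the first call (edgeR adjusted p = 0.0718 to 0.115). So did a block by replicate number, and leaving out a pair of 1 young and 1 old control. Leaving out any control library but old replicate 2 ended the second call (edgeR adjusted p = 0.0587 to 0.135). It also ended with the control libraries alone, and without old control replicate 4 and SVF replicate 2 (edgeR adjusted p = 0.0567 and 0.0583).

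The single called fall was in ENSRNOG00000003357, whose transcripts took far more reads, not corrected for transcript length, than those of the 4 rising genes. Young control replicates 1 to 4 were at 2043, 1682, 1607 and 1712 CPM. Old control replicates 1 to 4 were at 723, 886, 947 and 964 CPM, with a wide gap between the ages. The means were 1761 ± 193 and 880 ± 110 CPM (SD, n = 4), so that the level fell by 1.00 with an SE of 0.16 on the log2 scale. Its 95% interval was -1.34 to -0.67 and it passed the test (edgeR adjusted p = 0.0139). With 5577 to 17296 reads per control library, counting error was small beside the spread between libraries. The SVF-treated libraries were at 901, 959, 851 and 1282 CPM, all below the young libraries, though their log2 fold change of -0.82 from young control just missed the threshold (edgeR adjusted p = 0.0522). The fall with age was called in 21 of 23 alternative analyses, with log2 fold changes of -1.05 to -0.91. The exceptions were those without young control replicate 1 and without old control replicate 2 (edgeR adjusted p = 0.0718 and 0.0506).

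The fall with the next smallest p, in ENSRNOG00000003897, did not pass. Its young control replicates 1 to 4 were at 772, 396, 480 and 517 CPM and its old control replicates 1 to 4 at 208, 259, 312 and 368 CPM. The ages did not overlap, but the highest old and the lowest young library were close. The mean was 541 ± 162 CPM at 3 months and 287 ± 68.9 CPM at 24 months (SD, n = 4). The log2 fold change was -0.92 with an SE of 0.20 (95% interval -1.33 to -0.51) and did not pass (edgeR adjusted p = 0.128). Much of the young spread came from replicate 1, and without that library the log2 fold change was -0.69. SVF-treated libraries were at 331, 335, 250 and 365 CPM, again below every young library. DESeq2 (adjusted p = 0.00661) and limma voom (adjusted p = 0.0335) called this fall, as did edgeR with both old groups pooled (adjusted p = 0.0302).

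**Figure D3:**
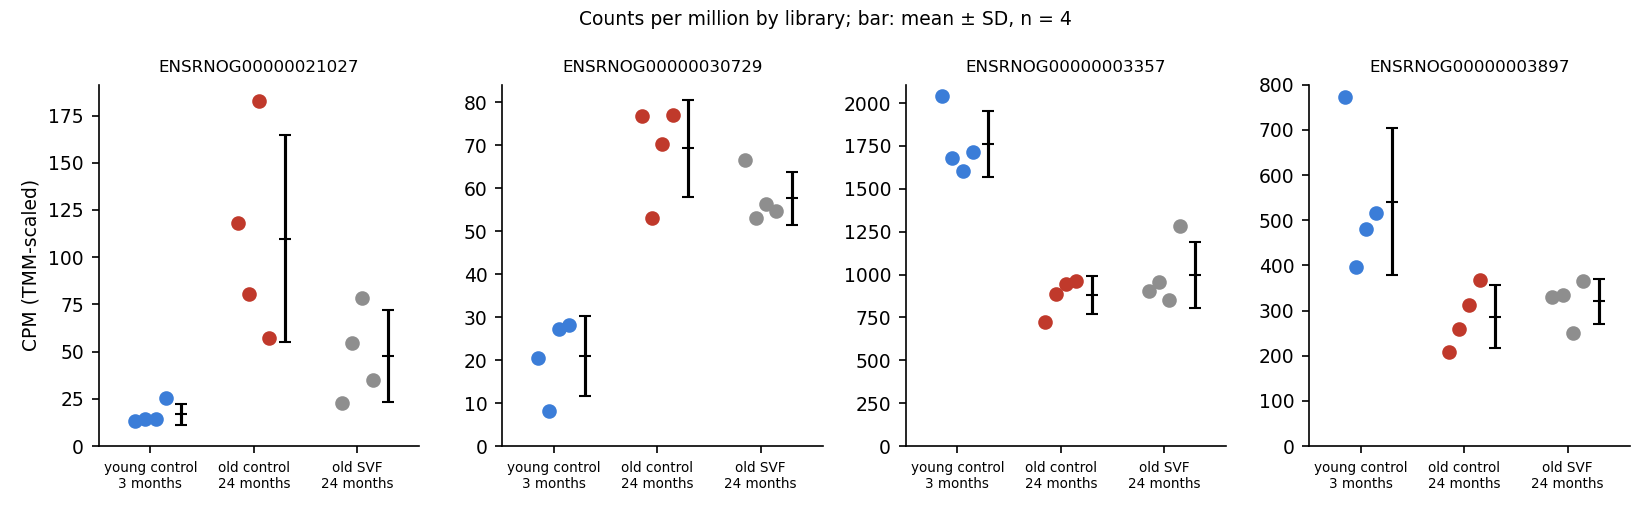
CPM of the 4 IDs in each library, by age and treatment. Points are libraries in replicate order and bars are the mean ± SD (n = 4). ENSRNOG00000021027 and ENSRNOG00000030729 were higher, and ENSRNOG00000003357 and ENSRNOG00000003897 lower, in each old control than in each young control, and ENSRNOG00000003897 did not pass the test (edgeR adjusted p = 0.128).

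For most of the tested genes a change with age beyond 2-fold lay outside the interval of the estimate. The median log2 fold change of the 12496 genes was -0.01, and the central 90 percent of genes lay between -0.74 and 0.79. The 95% interval of a single gene, not adjusted for the number of genes, lay inside a 2-fold change in either direction for 7480 genes (59.9%) and inside 1.5-fold for 3478 (27.8%). How tight the bound was followed the read depth. Among 3082 genes with a mean of 64 CPM or more, which held 80.9% of the reads at either age, the interval lay within 2-fold for 97.4% and within 1.5-fold for 75.2%. Among 4606 genes between 16 and 64 CPM these shares were 85.4% and 25.2%. Among 2933 genes between 4 and 16 CPM the share within 2-fold was 18.5%, and for none of the 1875 genes under 4 CPM did the interval lie within 2-fold. For most genes of the 2 lower classes the interval reached or passed a 2-fold change, so that a change of that size could not be bounded at this depth.

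**Figure D4:**
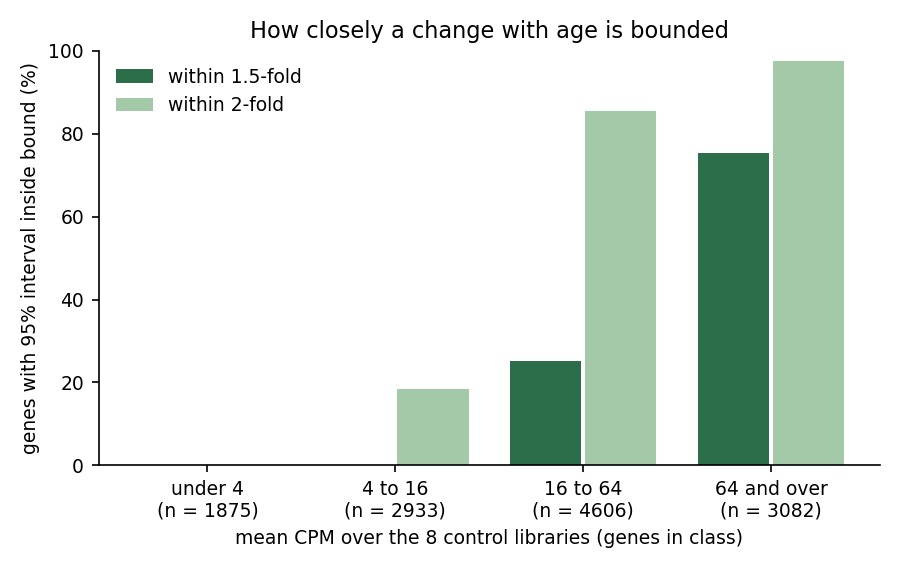
Share of genes, in percent, whose 95% interval of the fold change between old and young control lies within 1.5-fold (dark bars) or 2-fold (light bars), by mean CPM over the 8 control libraries. The share within 2-fold rises from 18.5% at 4 to 16 CPM to 97.4% at 64 CPM and over.

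The 100 genes with the highest CPM held 25.2% of the reads in young and 25.1% in old controls, and 90 genes were among the top 100 at both ages. By the estimate alone, 96 of these 100 genes changed by less than 1.5-fold, 47 in all being higher and 53 lower in old controls. The 95% interval lay within 1.5-fold for 62 of them. An unadjusted edgeR p under 0.05 was reached by 10% of the 100, against 5.34% of all tested genes, and 1 was called, ENSRNOG00000003357. The 1 other gene of the top 100 with a change of at least 2-fold was 1.10 higher on the log2 scale and was not called.

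More genes differed by 2-fold than were called. Of the 12496 tested genes 782 did so, 428 higher and 354 lower in old controls. At a mean of 16 CPM or more, 42 genes differed by at least 2-fold between the ages. Of these, 27 were among 4606 genes between 16 and 64 CPM and 15 among 3082 at 64 CPM and over. The 5 called genes were among the 42. Of the other 37, 25 were higher and 12 lower in old controls, and the young and old libraries overlapped in 26 and not in 11. Of all tested genes 3.50% had no overlap, but picking genes by a large change itself favours separation. In 12 of the 37, 1 library held over 50% of its group's summed CPM. The highest such share had a median of 40.0% over the 37 genes, and in the 5 called genes, whose call itself favours even libraries, it reached 41.6%.

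Variation between libraries was similar at both ages. The median SD of log2 CPM over 4 libraries was 0.35 in young and 0.37 in old controls, and 53.7% of genes had the higher SD in old controls. In the class of 64 CPM and over the medians were 0.20 and 0.22, and 55.6% of genes varied more in old controls. This difference was not tested.

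Single libraries moved the number of called genes. It was 0 without young control replicate 1 (641 genes at an unadjusted p under 0.05), 2 when young control replicate 2 or 3 was left out and 3 when old control replicate 2 was. It was 12 without old control replicate 1. Without both young control replicate 3 and old control replicate 1, 33 genes were called, 24 higher and 9 lower in old controls, and 3 of the 5 genes were among them. This pair was picked from an earlier look at the same contrast. Such a choice can raise the count by itself, so the 33 calls support nothing further. How far it did so was not tested. Old control replicate 4 and old SVF replicate 2 were also left out together, a pair chosen with earlier results of these data known. Without this pair 4 genes were called, all of them among the 5. Of the 12 analyses that each left out 1 library, 7 called 4 to 6 genes. These include all that left out an SVF-treated library, which is not part of the contrast (6, 4, 6 and 5 calls). Among control libraries, only leaving out young control replicate 4 or old control replicate 3 or 4 did so, with 4 calls each.

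**Figure D5:**
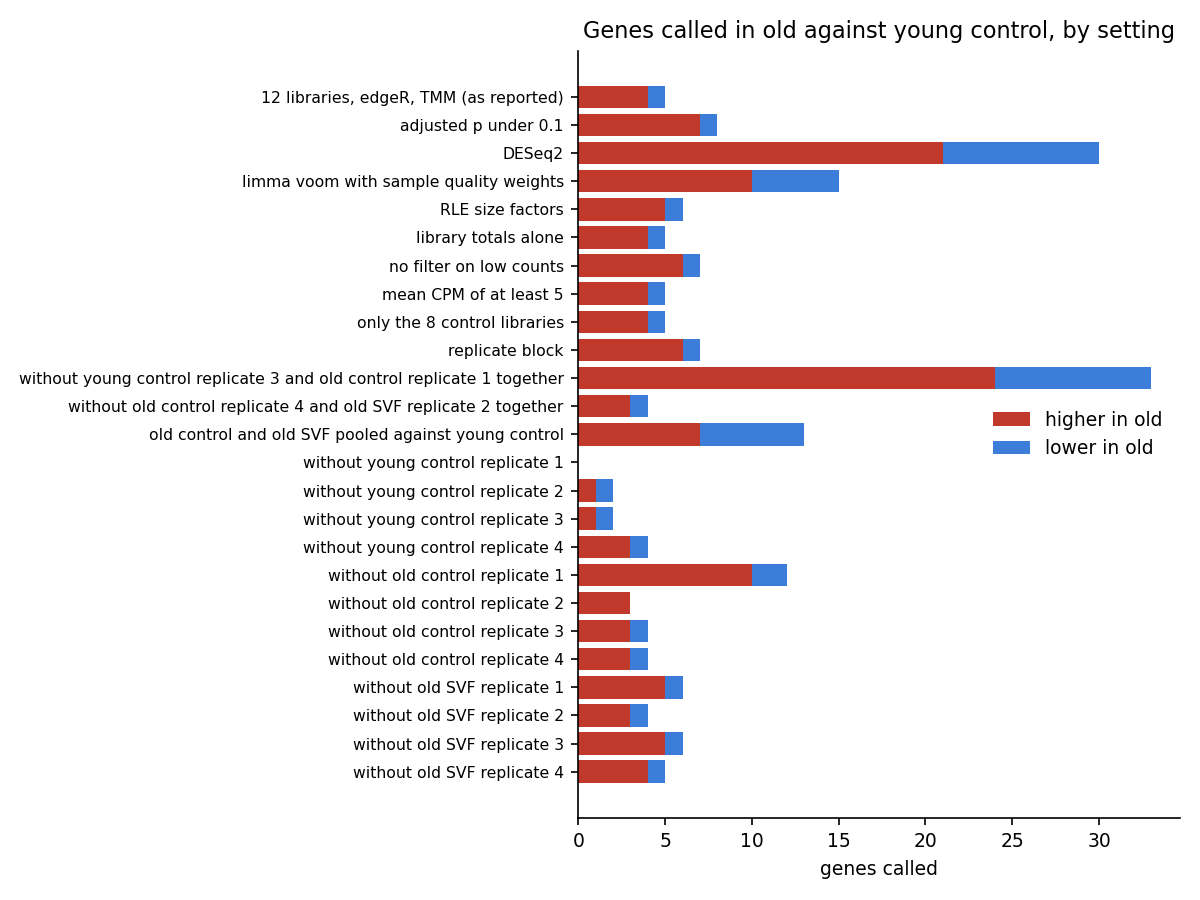
Number of genes called in old against young control under each analysis, split into higher (red) and lower (blue) in old. The first bar is the count given in the text, 5, and the counts run from 0 without young control replicate 1 to 33 without young control replicate 3 and old control replicate 1.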

How the data were processed

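The authors deposited raw counts per Ensembl gene ID for 12 libraries of polyadenylated RNA. Per the submitters' processing notes, FastQC 0.10.1, the build rn6 and HTSeq 0.10.0 were used. The aligner, annotation release and strand setting are not given in the sources used here. Paralogs, overlapping and antisense genes may therefore share reads. The analysis used edgeR 4.0.16 (R 4.3.3): filterByExpr (minimum count 10, minimum total 15) kept 12496 genes with 99.9% of counts, TMM scaled the libraries, and 1 robust quasi-likelihood model with 3 groups was fitted. Benjamini-Hochberg adjustment ran over all tested genes. The common biological variation between libraries was 37.9%. Alternatives used DESeq2 1.42.0 and limma 3.58.1.

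The IDs shown are the 2 called rises and the called fall with the largest fold changes (mean of at least 2 CPM, no overlap between ages) and, as only 1 fall was called, the fall with the next smallest p. Because 0 IDs matched symbols, 43 gene lists, 13 cell type marker lists, a heart muscle marker covariate and promoter motifs were not analysed here. The comparison, lists and alternatives were chosen with earlier results of these data known.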

Additional observations from a re-analysis of the deposited data

Results flagged for a closer look

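One value stood apart from its group. Young control replicate 4 had 25.4 CPM of ENSRNOG00000021027, while the next highest young library had 14.3 CPM and the lowest 13.1 CPM. The gap to the next library, 0.900 of the whole young range, exceeded the 95% critical value of Dixon's test for 4 values (0.829). Chance alone exceeds it in about 1 in 20 groups, and 26 such groups were checked. Without young control replicate 4 the log2 fold change of ENSRNOG00000021027 was 3.00 (edgeR adjusted p = 0.0113).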

How the results depend on the processing

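Of 24 alternatives for the number of called genes, 14 stayed within 1.5 times the 5 reported. These 14 include all the analyses that left out an SVF-treated library, which is not part of the contrast. The others were 8 at an adjusted p under 0.1, 30 by DESeq2, 15 by limma voom, 33 without young control replicate 3 and old control replicate 1, 13 with both old groups pooled, and 5 of the analyses that left out 1 library, whose counts ranged from 0 to 12. Without young control replicate 3 and old control replicate 1 1088 genes had an unadjusted p under 0.05, against 667 with all libraries. The pair was picked on this contrast, which can by itself raise both counts. The cause of this shift and of the others was not tested. No direction of a fold change given for the 4 IDs or the other 2 called genes turned in any of 23 alternatives. Old and young controls did not overlap in any of these genes, so a turn was hardly possible and this adds no support. With the replicate number as a block, 7 genes were called, 4 of them among the 5. Same-numbered young and old libraries did not deviate together (r of -0.0020 to 0.050, none of 4 above 0.1), and 3 of 8 libraries correlated best with their own number, so the numbers were not taken to pair samples. The age difference in median correlation was -0.00187, or -0.00342 by Pearson correlation, and -0.00525 to 0.000524 with 1 library left out. The difference in genes with no count was 3, and -111.5 to 104.2 with 1 library left out. Both changed sign with the library left out. The heart muscle marker covariate and the marker index alternatives were not run.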

Other observations

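Some IDs had reads at one age and none at the other, a comparison chosen after the values were seen and given with no test. Of 24600 IDs, 915 had reads in some old control and none in any young control, and 653 had the reverse. With a mean of at least 10 reads per library in the group with reads, these numbers were 34 and 4. Old controls were sequenced more deeply on average, and at a mean of at least 1.5 CPM, unscaled, the numbers were 16 and 6. Of the 34 IDs, 6 had reads in all 4 old controls, 17 in 3, 7 in 2 and 4 in 1, and the highest mean was 31.2 reads. Only 8 of the 34 had enough reads for a test. In SVF-treated rats of the same age, whose libraries were not used to choose the 34, 27 of them had reads in at least 1 library. The same share among other IDs of that depth was not measured, so the 27 support no effect of age. Single SVF-treated libraries held 17, 11, 13 and 8 of the 34, against 27, 16, 27 and 23 in the old controls that chose them. Numbers were also uneven between groups of the same age: 31 IDs had reads in old controls and none in SVF-treated libraries, and 17 the reverse, or 15 and 8 by the CPM bound. At a mean of at least 10 reads, SVF-treated libraries had 27 IDs that were at 0 in every young control, and young controls 15 that were at 0 in every SVF-treated library, or 17 and 18 by the CPM bound.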
